A study of Mus musculus with 36 samples.

Results

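The genes described here encode the subunits of the receptors for glutamate and for GABA. They were chosen by gene symbol: AMPA (Gria1 to Gria4), kainate (Grik1, Grik3, Grik4 and Grik5), NMDA (Grin) and metabotropic glutamate (Grm) receptor genes, GABA-A receptor subunit genes of the alpha, beta, gamma, delta, epsilon, theta and rho kinds (Gabr), and the GABA-B receptor genes (Gabbr1 and Gabbr2). Of the 22447 genes in the deposited expression table, 43 matched by name, and 41 of those had a mean normalized count of at least 1 over the 19 RNA libraries. Gabrp (mean 0.879) and Gabrr3 (mean 0.732) lay below that minimum and were not tested. The 41 genes comprised 4 AMPA, 4 kainate, 7 NMDA, 2 group I, 2 group II and 3 group III metabotropic, 6 alpha, 3 beta, 3 gamma, 3 delta, epsilon or theta, 2 rho and 2 GABA-B genes.

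Glutamate is the main fast excitatory transmitter of the brain and GABA the main inhibitory one. AMPA, kainate and NMDA receptors are cation channels opened by glutamate, GABA-A receptors are chloride channels assembled from several subunits, and metabotropic glutamate and GABA-B receptors act through G proteins. In the hypothalamus, where most neurons are glutamatergic or GABAergic, these receptors set how neurons that control feeding and hormone release respond to their inputs, and Sim1 encodes a transcription factor needed for the neurons of the paraventricular nucleus.

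The study measured RNA in hypothalamus of mice in 4 groups and mapped Cas9 binding by chromatin immunoprecipitation. Wild-type mice (n = 5, 4 female and 1 male, 3 to 9 months old) carried no guide RNA. Sim1 heterozygous mice (Sim1 +/-, n = 4, 3 female and 1 male, 4 to 9 months) also carried no guide. Mice with the promoter guide (n = 6, 4 female and 2 male, 3 to 9 months) and with the enhancer guide (n = 4, 2 female and 2 male, 3 to 7 months) were Sim1 +/- as well, and received a CRISPR activation guide to the Sim1 promoter or to a Sim1 enhancer. The strain was B6/FVB, except for wild type F_2 and Sim1 heterozygous F_3, which were B6. The sources used here do not say how guide and Cas9 were delivered or which cells held them, so that each library averages the whole dissected hypothalamus. In such bulk samples, fewer cells of a type and less RNA per cell cannot be told apart.

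Reads per library ranged from 14.1 M to 84.8 M. Within each group the libraries are named by sex and number, females before males. Sim1 had normalized counts of 547.3, 485.3, 394.0, 305.3 and 380.6 in the wild type (females F_1 to F_4, then male M_1), and of 329.9, 157.8, 120.6 and 235.7 in Sim1 heterozygotes (females F_1, F_3 and F_4, then male M_1). With the promoter guide it had 431.0, 190.1, 154.7, 227.3, 315.8 and 159.8 (females F_1 to F_3 and F_5, then males M_1 and M_3), and with the enhancer guide 287.1, 352.9, 272.2 and 287.3 (females F_1 and F_2, then males M_1 and M_3). Values are listed in this order throughout. Sim1 lay below every wild-type library in 3 of 4 heterozygous libraries, and F_1 lay inside the wild-type range (log2 fold change -1.07, SE 0.298, limma unadjusted p = 0.00185, adjusted p = 0.868). Set against heterozygotes, Sim1 differed by 0.23 on the log2 scale with the promoter guide (SE 0.287, limma adjusted p = 0.938), or by 0.12 (SE 0.314) without heterozygous F_3, and by 0.61 with the enhancer guide (SE 0.318, adjusted p = 0.678). All 13 hypothalamic marker genes, among them Otp, Avp, Oxt, Trh and Pomc, were above 0 in every library.

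Several libraries stood apart in the receptor genes. Sim1 heterozygous F_3 had the lowest level of 24 of the 41 receptor genes, and the mean of the receptor genes lay 0.68 below the average library on the log2 scale (deviation -0.68). There the 12 neuronal marker genes lay at -0.47 (summed normalized counts 175009, against 177872 to 234395 in wild type), the 9 astrocyte markers at 0.71 (185238, against 73044 to 128937 in wild type) and the 59 ribosomal protein genes at 1.23 (325158, against 104259 to 162782). Summed neuronal markers ranged from 175009 to 238172 over the heterozygous libraries, from 203531 to 259679 with the promoter guide and from 193376 to 251561 with the enhancer guide, with no marker of the list at 0. Summed astrocyte markers ranged from 92695 to 185238, from 74227 to 103527 and from 66141 to 93627 in the same order, and ribosomal protein genes from 123316 to 325158, from 116748 to 172062 and from 102366 to 136916. The 4 pituitary markers summed to 1702 in F_3, to 32 to 1702 over the heterozygotes, 78 to 703 in wild type, 12 to 466 with the promoter guide and 10 to 2128 with the enhancer guide, with Gh at 0 in 13 libraries and Prl and Tshb each at 0 in 4. The part of these lists in the receptor levels was not tested beyond a fit with the neuronal list added, given below. Sim1 heterozygous F_3 and wild type F_2 were the B6 libraries, and F_2 had the lowest level over all libraries in 0 of 41 genes. Among receptor genes listed below by library, F_2 was the lowest wild-type one in Grik1, Grm2, Grin1, Grin2b, Grm5, Gabbr1 and Gabbr2. It was not in Gria1, Gria2, Gabra2, Gabre, Gabrq and Gabrd. Strain was not in the fits, and its part was not tested beyond counts without the B6 libraries. Single-gene differences from heterozygotes that moved by over 1.5 times without Sim1 heterozygous F_3 are given with and without it.

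**Figure D1:**
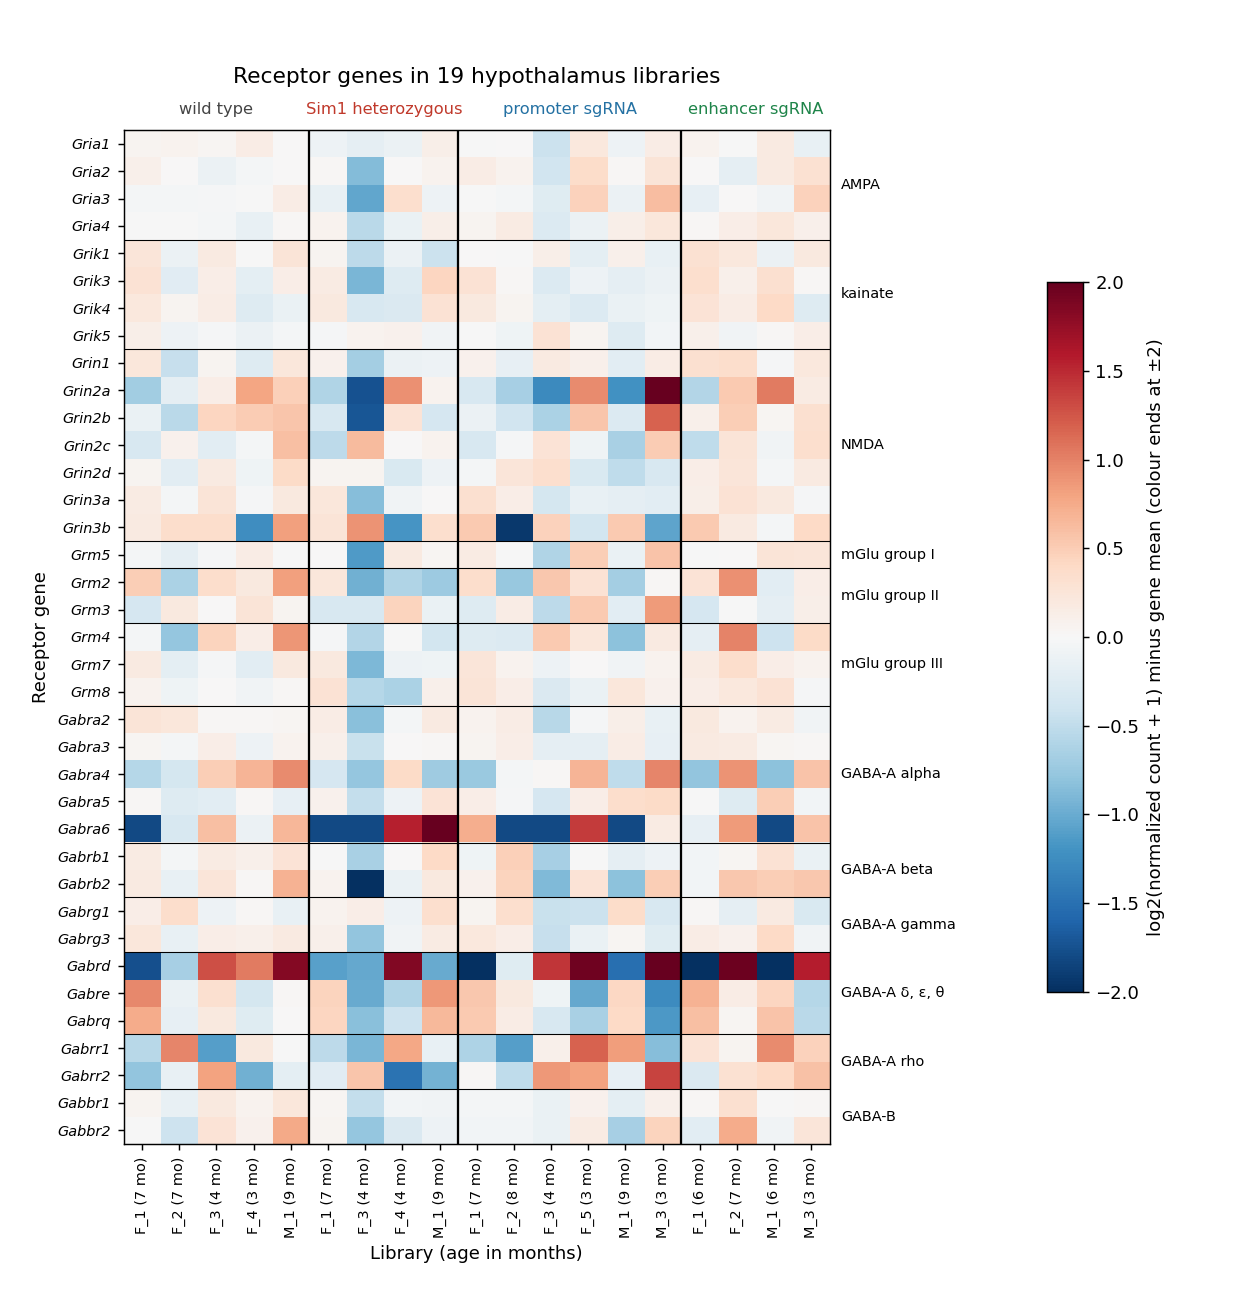
Log2(normalized count + 1) of 37 of the 41 receptor genes (rows, by class) minus the gene's mean over 19 libraries (columns, by group, with the age in months); colour ends at ±2. Sim1 heterozygous F_3 is below average in most rows, and Gabrd divides the libraries of every group into low and high ones.

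Receptor genes in Sim1 heterozygous against wild-type hypothalamus were compared first, which asks whether they differ where 1 Sim1 copy is lost. None of the 41 receptor genes passed an adjusted p of 0.05, where 0.00% of the 20505 genes tested did (limma, 0 genes, smallest adjusted p of a receptor gene 0.868; edgeR's quasi-likelihood test, 0 genes). At an unadjusted p of 0.05, 2 receptor genes were lower, against 1.72% of all genes, and 0 were higher, against 2.02% (edgeR, 3 receptor genes in all). By sign, 36 of 41 were lower and 5 higher, with a median log2 difference of -0.20, against -0.01 and 51.2% lower over all genes. Without Sim1 heterozygous F_3, 22 were lower and 19 higher, the median was -0.02, and 0 passed an unadjusted p of 0.05. That count was 8 without Sim1 heterozygous F_1, 5 without F_4, 6 without wild type F_2, and 1 without wild type F_1 or M_1. The share of all genes passing in these refits is not given here, so the counts show only their dependence on single libraries.

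The 2 genes lower at an unadjusted p of 0.05 were Grik1, a kainate receptor subunit, and Grm2, a group II metabotropic receptor of presynaptic terminals. Grik1 (chromosome 16, 87895901 to 88290258, GRCm38, minus strand) had normalized counts of 800.9, 623.2, 764.3, 673.0 and 804.1 in wild type and of 698.8, 470.9, 623.9 and 500.6 in heterozygotes. Heterozygous F_3 and M_1 lay below every wild-type library, F_4 was level with the lowest one, F_2, and F_1 lay inside the wild-type range. The log2 difference was -0.36 (SE 0.130, 95% interval -0.63 to -0.09; limma unadjusted p = 0.0118, adjusted p = 0.868), and -0.26 (SE 0.129, unadjusted p = 0.0554) without F_3.

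Grm2 (chromosome 9, 106643095 to 106656082, GRCm38, minus strand) had 1733.9, 799.9, 1573.9, 1415.4 and 2189.6 in wild type and 1447.1, 633.6, 811.5 and 750.2 in heterozygotes. Heterozygous F_3 and M_1 lay below every wild-type library, F_4 just above the lowest one, F_2, and F_1 inside the range. The log2 difference was -0.75 (SE 0.312, interval -1.40 to -0.10; limma unadjusted p = 0.0262, adjusted p = 0.868), and -0.58 (SE 0.335, unadjusted p = 0.101) without F_3. Grm2 was highest in the 2 libraries with the most thalamic marker RNA, enhancer guide F_2 and wild type M_1. The 8 thalamic markers summed to 5508 to 36041 in wild type, 5815 to 12230 in heterozygotes, 6410 to 23531 with the promoter guide and 5609 to 36712 with the enhancer guide, none of them at 0 in any library. Beyond a fit with the thalamic list added, whose count of receptor genes is given at the end, their part in the Grm2 levels was not tested.

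The enhancer guide was compared with Sim1 heterozygous mice without a guide, which asks whether these genes differ where a guide to the enhancer is present. None of the 41 passed an adjusted p of 0.05, where 0.00% of all genes did (limma, 0 genes, smallest adjusted p of a receptor gene 0.678; edgeR, 0 genes). At an unadjusted p of 0.05, 5 receptor genes were higher, against 2.90% of all genes, and 0 were lower, against 3.77% (edgeR, 5 receptor genes in all). Among them were Grik1, Grm2, Grin1 and Grm7, the last of which was named after its value was seen. By sign, 36 of 41 were higher and 5 lower, with a median of 0.24, against 0.00 and 50.3% higher over all genes. Without heterozygous F_3, 30 were higher, the median was 0.07 and 2 passed an unadjusted p of 0.05. That count was 9 without heterozygous F_1, 8 without F_4 or M_1, 3 without enhancer guide F_1 and 1 without enhancer guide F_2. For these refits too, the share of all genes passing is not given here.

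Marker lists of cell types and regions differed between these groups too, in fits that include heterozygous F_3. In the enhancer-guide libraries 11 of 12 neuronal markers were higher by sign than in heterozygotes (median log2 difference 0.27), 8 of 9 astrocyte markers lower (median -0.30) and 7 of 7 microglial markers lower (median -0.27, 4 of them at an unadjusted p of 0.05). Summed microglial markers were 10213 to 12815 in wild type, 12446 to 13878 in heterozygotes, 10169 to 13866 with the promoter guide and 10443 to 11842 with the enhancer guide, none of them at 0 in any library. In heterozygotes against wild type, 10 of 12 neuronal markers were lower by sign (median -0.11) and 7 of 7 microglial ones higher (median 0.22). Some other lists shifted more. There 4 of 5 blood markers were higher (median 1.38). Thalamic markers were lower in 8 of 8 (median -0.87) and oligodendrocyte precursor markers in 4 of 5 (median -0.33). Choroid plexus markers were lower in 7 of 7 (median -0.84), and striatal ones higher in 6 of 7 (median 0.35). Summed choroid plexus markers were 1596 to 79351 in wild type and 1543 to 2460 in heterozygotes. They were 1536 to 39558 with the promoter guide and 1166 to 1845 with the enhancer guide, none of them at 0 in any library. With the enhancer guide against heterozygotes, 4 of 5 blood markers were lower (median -1.16). Thalamic markers were then higher in 8 of 8 (median 0.57) and precursor markers in 4 of 5 (median 0.43). Choroid plexus markers were lower in 6 of 7 (median -0.24) and striatal ones in 4 of 7 (median -0.19). With the level of the neuronal markers added to the fit, 1 receptor gene passed an unadjusted p of 0.05 for the enhancer guide in place of 5. The share of all genes passing in that fit is not given here, so the drop is not set against it. A fit with the thalamic list added was run as well, and the part of the other lists was not tested.

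Grik1 had 830.6, 783.3, 624.0 and 774.0 in enhancer guide F_1, F_2, M_1 and M_3. M_1 was level with heterozygous F_4 (623.9), and the other three libraries lay above all 4 heterozygous ones. The log2 difference was 0.42 (SE 0.139, interval 0.13 to 0.71; limma unadjusted p = 0.00707, adjusted p = 0.678), and 0.33 (SE 0.135, unadjusted p = 0.0255) without F_3.

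Grm2 had 1490.7, 2321.4, 1065.7 and 1352.8 with the enhancer guide. Heterozygous F_1 (1447.1) lay inside that range and the other three heterozygous libraries below it. The log2 difference was 0.84 (SE 0.334, interval 0.14 to 1.54; limma unadjusted p = 0.0205, adjusted p = 0.678), and 0.68 (SE 0.351, unadjusted p = 0.0672) without F_3. In the authors' deposited table, for the enhancer guide against none, Grm2 had a log2 fold change of 1.27 (false discovery rate 0.145). None of the 41 receptor genes in the authors' deposited table passed a false discovery rate of 0.05, where 0.116% of genes did for heterozygous against wild type, 0.0427% for the enhancer guide against none and 0.0548% for the promoter guide against none. In the authors' deposited table, 7 receptor genes passed an unadjusted p of 0.05 for the enhancer guide, against 5.41% of all genes, with 23 receptor genes higher and 18 lower by sign. In the same authors' deposited table, 4 did for heterozygous against wild type, against 2.66% (8 higher and 33 lower by sign), and 2 for the promoter guide, against 2.65% (15 higher and 26 lower).

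Grin1, the obligatory NMDA receptor subunit, had 13525.7, 8459.0, 12099.0, 9723.3 and 13602.7 in wild type and 12367.1, 7253.1, 10750.6 and 10810.4 in heterozygotes. It had 14554.9, 14811.5, 11367.3 and 13377.1 with the enhancer guide and between 10027.8 and 13118.2 with the promoter guide, with a median of 12427.6. Of the enhancer-guide libraries, 3 lay above all heterozygous ones and M_1 lay below heterozygous F_1. The log2 difference between the enhancer guide and heterozygotes was 0.41 (SE 0.176, limma unadjusted p = 0.0295, adjusted p = 0.678), and 0.26 (SE 0.159, unadjusted p = 0.119) without F_3.

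**Figure D2:**
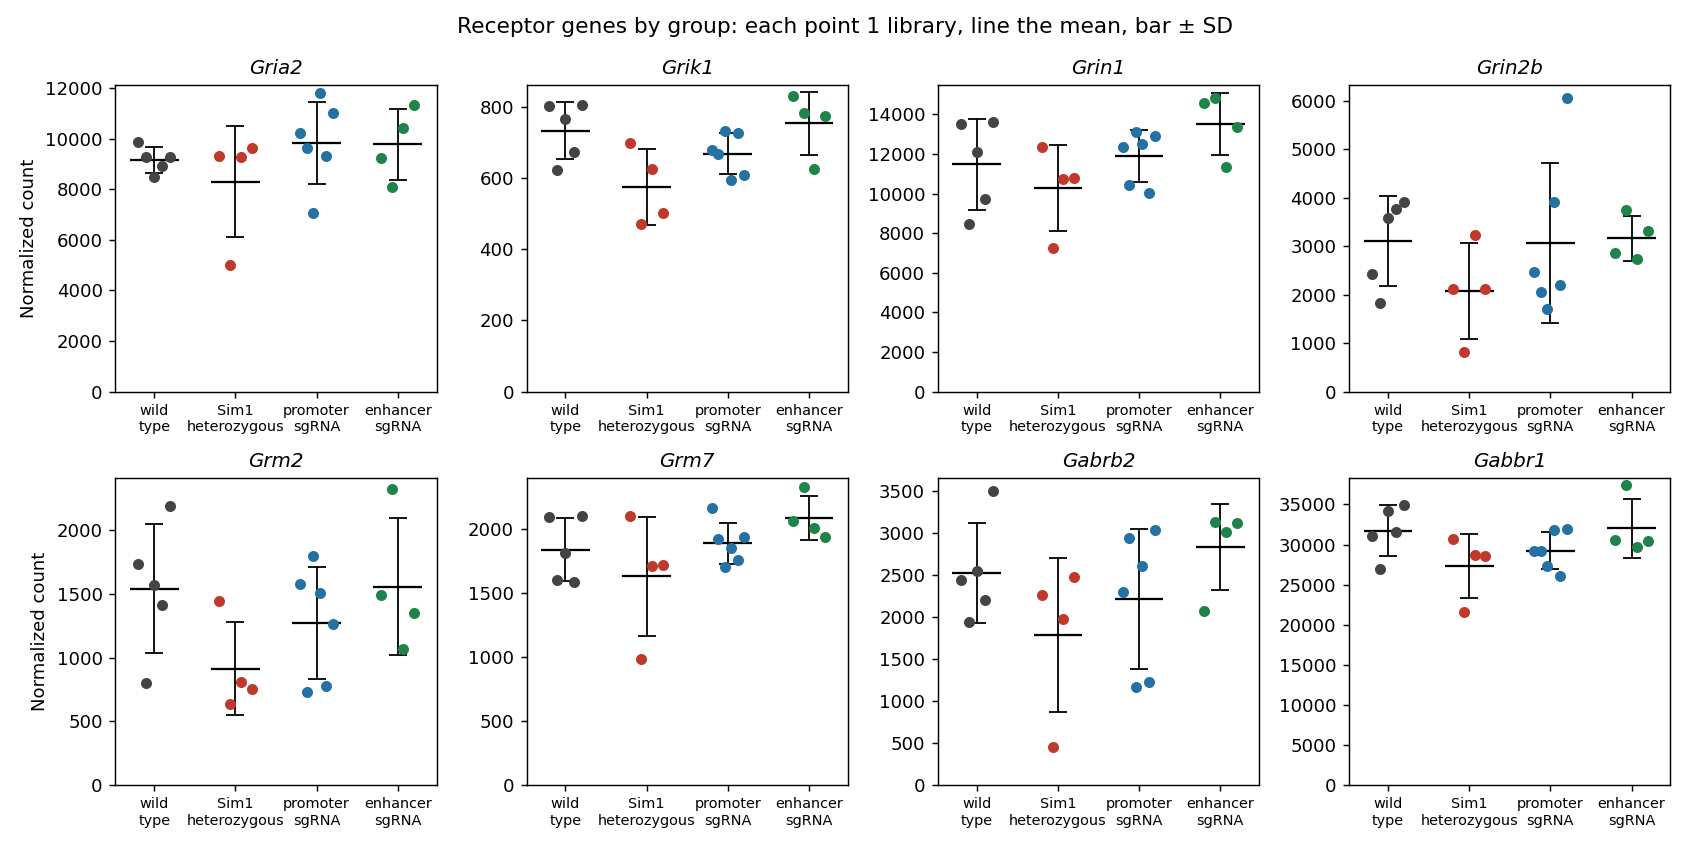
Normalized counts of 8 receptor genes by group; each point is 1 library, the line the mean and the bar ± SD (n = 5, 4, 6 and 4). The lowest heterozygous point is F_3 in every panel, the heterozygous points overlap those of every other group in every panel, and the highest enhancer-guide point of Grm2 is from F_2.

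The promoter guide was compared with Sim1 heterozygous mice as well. None of the 41 genes passed an adjusted p of 0.05, where 0.00% of all genes did (limma, 0 genes, smallest adjusted p 0.934; edgeR, 0 genes). At an unadjusted p of 0.05, 0 receptor genes were higher or lower, against 1.39% of all genes higher and 2.68% lower (edgeR, 1 receptor gene). That count was 5 without heterozygous F_1, 3 without F_4, 2 without F_3 or promoter guide F_2, and 1 without wild type F_3 or promoter guide F_3, F_5 or M_1. The share of all genes in these refits is not given here either. By sign, 31 of 41 were higher, with a median of 0.13 against 0.00 over all genes, and without heterozygous F_3, 22 were higher with a median of 0.00. Grm2 differed by 0.50 (SE 0.301) and Grik1 by 0.24 (SE 0.125), or by 0.33 (SE 0.323) and 0.14 (SE 0.124) without F_3, neither at an unadjusted p of 0.05. Against wild type, 0 receptor genes passed either threshold with the promoter guide, where 0.00% of all genes passed the adjusted one and 0.931% and 1.18% the unadjusted one higher and lower. Against wild type with the enhancer guide the count was 0 too, where 0.00%, 0.424% and 0.839% of all genes passed. Between the guides it was 0 again, where 0.00%, 1.09% and 1.36% passed. By sign, 26 of 41 were lower with the promoter guide than in wild type (median -0.12), 28 higher with the enhancer guide than in wild type (median 0.07), and 32 higher with the enhancer than with the promoter guide (median 0.13). These comparisons share control libraries, so their signs are not independent of one another.

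**Figure D3:**
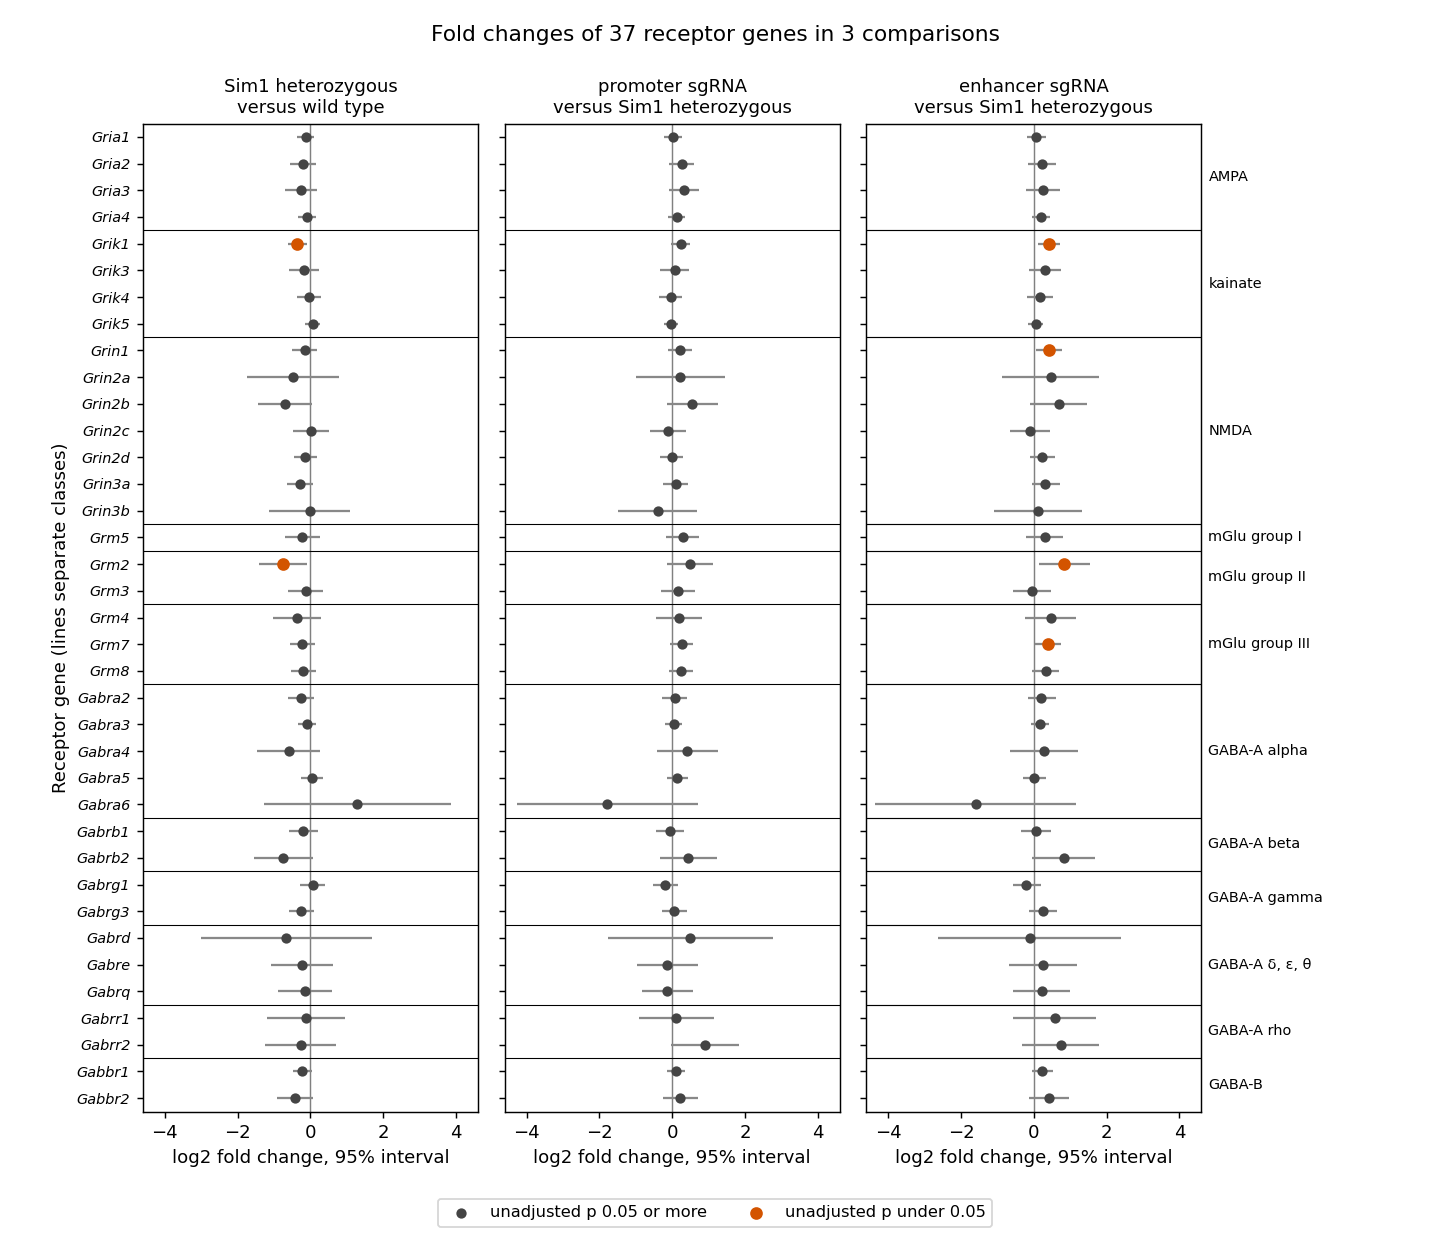
Log2 fold changes with 95% intervals for 37 of the 41 receptor genes (rows, lines separate the classes) in 3 comparisons; orange points have an unadjusted p under 0.05. Only Grik1 and Grm2 are orange on the left, none in the middle, and Grik1, Grin1, Grm2 and Grm7 on the right; the widest intervals are those of Gabra6 and Gabrd.

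By class, the 4 AMPA genes, whose channels carry most fast excitation, had a median of -0.17 in heterozygotes against wild type, all with a negative sign, and one of 0.01 without F_3, with 3 of 4 positive. Gria1 had 13467.8, 13667.9, 13403.0, 14408.8 and 13050.2 in wild type and 12139.0, 11512.0, 12030.2 and 14125.3 in heterozygotes (log2 difference -0.13, SE 0.119), and the ranges overlapped through M_1. Gria2, the subunit that makes AMPA channels poorly permeable to calcium, had 9875.4, 9277.5, 8482.7, 8917.0 and 9254.5 in wild type and 9303.7, 5013.0, 9251.5 and 9615.1 in heterozygotes (log2 difference -0.20, SE 0.166, or 0.02, SE 0.131, without F_3). All heterozygous libraries but F_3 lay inside the wild-type range. The log2 ratio of Gria1 to Gria2, read only across libraries because it also reflects gene length, averaged 0.57 ± 0.104 (SD, n = 5) in wild type, 0.63 ± 0.389 (n = 4) in heterozygotes, 0.39 ± 0.0427 (n = 6) with the promoter guide and 0.45 ± 0.278 (n = 4) with the enhancer guide. Gria3 ranged from 1272.2 to 4021.7 and Gria4 from 2744.4 to 4667.1 over the 19 libraries, each lowest in heterozygous F_3.

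Among the kainate genes, Grik5 stayed within 4556.6 to 6662.9 in all 19 libraries and did not share the low values of F_3 (5718.7). Its log2 difference was 0.06 (SE 0.0965) in heterozygotes against wild type, -0.02 (SE 0.0930) with the promoter guide and 0.05 (SE 0.103) with the enhancer guide against heterozygotes, with 95% intervals of -0.14 to 0.26, -0.22 to 0.17 and -0.17 to 0.26. Grik3 ranged from 1780.3 to 4533.3 and Grik4 from 854.8 to 1402.9, both lowest in F_3.

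Among the NMDA genes, Grin2a and Grin2b encode subunits that set channel kinetics, Grin2b being the one that prevails early in development. Grin2b had 2425.6, 1830.6, 3568.8, 3765.8 and 3915.0 in wild type and 2122.0, 813.8, 3234.3 and 2108.8 in heterozygotes. It ranged from 1710.5 to 6058.9 (median 2330.8) with the promoter guide and from 2724.0 to 3749.9 with the enhancer guide. Its log2 difference was -0.70 (SE 0.351, limma unadjusted p = 0.0602) in heterozygotes against wild type, and -0.32 (SE 0.325) without F_3. Grin2a ranged from 13.7 in heterozygous F_3 to 224.7 in promoter guide M_3, and the log2 ratio of Grin2a to Grin2b averaged -5.85 ± 0.392 (SD, n = 5) in wild type, -5.62 ± 0.440 (n = 4) in heterozygotes, -5.91 ± 0.736 (n = 6) with the promoter guide and -5.73 ± 0.721 (n = 4) with the enhancer guide. Those group means differed by less than the spread between libraries. Grin2c was highest in F_3 (1564.2, from 644.4), Grin2d ranged from 1197.4 to 2214.0 and Grin3a from 1551.7 in F_3 to 3495.9.

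Among the metabotropic genes, Grm5, a group I receptor, had 3423.2, 3104.3, 3430.6, 3899.1 and 3485.8 in wild type and 3529.6, 1596.5, 3957.0 and 3618.4 in heterozygotes, so that F_3 lay below the wild-type range and F_4 just above it. Its log2 difference was -0.22 (SE 0.226), and 0.08 (SE 0.183) without F_3. The 3 group III genes, Grm4, Grm7 and Grm8, differed by 0.33 to 0.47 on the log2 scale between the enhancer guide and heterozygotes, or 0.18 to 0.35 without F_3, of which Grm7 passed an unadjusted p of 0.05 (0.39, SE 0.172, limma unadjusted p = 0.0330, adjusted p = 0.678) and was at 0.18 (SE 0.122) without F_3. Grm3, of group II, ranged from 648.2 to 1684.9, Grm4 from 926.2 to 3282.8 and Grm8 from 450.6 to 859.6.

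For the GABA-A alpha genes, Gabra2 had 4242.2, 4150.8, 3620.6, 3614.4 and 3672.4 in wild type and 3939.3, 1989.1, 3464.6 and 4035.8 in heterozygotes. F_3 was the lowest library, F_4 lay just below the wild-type range, and the ranges overlapped. The log2 difference was -0.25 (SE 0.172), and -0.02 (SE 0.132) without F_3. Gabra3 ranged from 4809.3 to 7454.4 and Gabra5 from 1490.9 to 2933.4, both lowest in F_3.

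Gabra6, the subunit of cerebellar granule cells, was listed between 0 and 9.2 in 18 libraries and at 358.9 in heterozygous M_1. In that library the cerebellar markers Cbln3, Fat2, Pcp2 and Car8 were at 505.2, 229.5, 89.3 and 947.3, against at most 47.5, 11.9, 10.6 and 695.0 elsewhere, while Cbln1, Calb1 and Neurod1 lay inside the range of the other libraries. The 7 markers summed to 11693 to 14647 in wild type, 10912 to 16394 in heterozygotes, 9027 to 17572 with the promoter guide and 11786 to 15341 with the enhancer guide, with Pcp2 at 0 in 7 and Fat2 at 0 in 6 libraries. The part of these markers in Gabra6 was not tested. The log2 difference of Gabra6 was 1.29 (SE 1.23) in heterozygotes against wild type and -1.60 (SE 1.32) with the enhancer guide against heterozygotes. Without heterozygous F_3 they were 2.21 (SE 1.28) and -2.45 (SE 1.34). Both fits hold the 358.9 of heterozygous M_1, and Gabra6 values from a fit without that library are not given here.

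Among the beta and gamma genes, whose subunits complete the GABA-A channel, Gabrb1 ranged from 452.8 to 1003.7, Gabrb2 from 447.3 in F_3 to 3498.2, Gabrg1 from 2734.2 to 4759.7 and Gabrg3 from 791.4 in F_3 to 1786.0. The rho subunit genes Gabrr1 (4.3 to 24.7) and Gabrr2 (5.0 to 41.6) had few counts.

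Gabbr1 and Gabbr2, which together form the GABA-B receptor, were each lower in heterozygotes by log2 differences of -0.22 (SE 0.129) and -0.42 (SE 0.240) against wild type, and higher with the enhancer guide by 0.23 (SE 0.138) and 0.42 (SE 0.257) against heterozygotes. Gabbr1 had 31098.9, 26934.4, 34201.6, 31534.0 and 34926.7 in wild type and 30724.4, 21530.6, 28644.0 and 28520.2 in heterozygotes. Gabbr2 had 8472.1, 6421.6, 10269.2, 9075.2 and 14471.8 against 8819.9, 4990.7, 7006.3 and 7965.3. Without F_3 the differences were -0.11 (SE 0.117) and -0.26 (SE 0.250) against wild type, and 0.13 (SE 0.122) and 0.27 (SE 0.262) with the enhancer guide. None of these differences passed an unadjusted p of 0.05, and the groups overlapped in each.

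Among 63 partner genes of the same synapses, taken as a list of transporters, synthesis enzymes, scaffold and auxiliary proteins, 50 were lower and 13 higher in heterozygotes (median -0.12 against -0.01 over all genes). Of these 3 passed an unadjusted p of 0.05, all lower, against 1.72% of all genes lower and 2.02% higher, among them Shisa9, an AMPA receptor auxiliary subunit (-0.31, SE 0.142), and Cacng5, another (-0.38, SE 0.180). With the enhancer guide against heterozygotes, Shisa9 (0.39, SE 0.151) and Cacng2, which traffics AMPA receptors (0.31, SE 0.137), were higher, and Gabarap, which binds GABA-A receptors (-0.31, SE 0.139), was lower at that threshold, so that 2 of 63 were higher, against 2.90% of all genes, and 1 lower, against 3.77%. Without heterozygous F_3, 0 partner genes passed an unadjusted p of 0.05 in either comparison, 33 were lower and 30 higher in heterozygotes (median -0.00), and 39 were higher and 24 lower with the enhancer guide (median 0.07). There Shisa9 was at -0.13 (SE 0.116) and Cacng5 at -0.14 (SE 0.141) in heterozygotes, and Shisa9 at 0.22 (SE 0.121), Cacng2 at 0.24 (SE 0.139) and Gabarap at -0.18 (SE 0.121) with the enhancer guide. None passed an adjusted p of 0.05 (limma, smallest adjusted p 0.868 in the first comparison and 0.678 in the second). With the promoter guide against heterozygotes, 52 were higher and 11 lower, or 39 and 24 without F_3, with 0 at an unadjusted p of 0.05 each time.

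The ages of the mice, 3 to 9 months, gave a further contrast, fitted as a slope per month beside group and sex and chosen after the data were seen. Libraries of the same number had similar ages across groups. F_1 were 6 to 7 months old, F_2 7 to 8, F_3 4, F_4 3 to 4, M_1 6 to 9 and M_3 3. A slope with age therefore cannot be cleanly told apart from what the number stands for, which the labels do not say. Over all genes, 2.81% (577) passed an adjusted p of 0.05, and 2 of the 41 receptor genes did, both higher with age: Gabre, the epsilon subunit, and Gabrq, the theta subunit, which are expressed in hypothalamus and brainstem. At an unadjusted p of 0.05, 11 receptor genes were higher with age, against 8.97% of all genes, and 5 were lower, against 8.72%. Next to Gabre and Gabrq, the smallest p-values among those higher were of Gabrg1 (0.08 log2 per month, SE 0.0224, limma adjusted p = 0.0678) and Grik4 (0.06, SE 0.0219, adjusted p = 0.132). Among those lower were Gabrd, Grm3 (-0.08, SE 0.0335, limma adjusted p = 0.210), Gabra4 (-0.14, SE 0.0614, adjusted p = 0.228) and Grin2a (-0.19, SE 0.0905, adjusted p = 0.275). Of the 63 partner genes, 2 passed an adjusted p of 0.05, both lower with age: Cnih2, an AMPA receptor auxiliary protein (-0.11, SE 0.0262, limma adjusted p = 0.0330), and Dlgap1, a postsynaptic scaffold protein (-0.14, SE 0.0364, adjusted p = 0.0499).

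Gabre had 2429.4, 1135.8, 1562.0, 981.2 and 1265.6 in wild type and 1707.3, 621.2, 825.7 and 2293.6 in heterozygotes. With the promoter guide it had 1818.4, 1430.8, 1183.4, 612.8, 1671.6 and 524.4, and with the enhancer guide 2025.7, 1390.7, 1689.7 and 838.8. By age, the 8 libraries of 3 to 4 months ran from 524.4 to 1562.0 (median 832.2) and the 11 libraries of 6 to 9 months from 1135.8 to 2429.4 (median 1689.7), which overlapped. The slope was 0.23 log2 per month (SE 0.0444, interval 0.14 to 0.32; limma adjusted p = 0.0127). Its group differences were small beside their errors (-0.23, SE 0.413, in heterozygotes; 0.26, SE 0.442, with the enhancer guide), and were 0.10 (SE 0.424) and -0.05 (SE 0.444) without heterozygous F_3.

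Gabrq had 4824.6, 2591.6, 3321.6, 2437.8 and 2890.3 in wild type and 3911.6, 1615.1, 2161.5 and 4539.5 in heterozygotes. With the promoter guide it had 4160.8, 3205.4, 2306.8, 1836.8, 3816.5 and 1306.8, and with the enhancer guide 4373.5, 2975.6, 4286.0 and 1987.9. The 3 to 4 month libraries ran from 1306.8 to 3321.6 (median 2074.7) and the 6 to 9 month libraries from 2591.6 to 4824.6 (median 3911.6). The slope was 0.19 log2 per month (SE 0.0381, interval 0.11 to 0.27; limma adjusted p = 0.0136).

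Marker lists of neighbouring brain regions also differed between the ages. The 7 striatal markers summed to 4437 to 25920 (median 13470) in the 3 to 4 month libraries and to 3941 to 5535 (median 4878) in the 6 to 9 month libraries. The 9 cortical and hippocampal markers summed to 7699 to 27218 (median 14528) against 13259 to 17464 (15914). The 13 hypothalamic ones summed to 20300 to 92231 (median 35684) against 35779 to 74797 (51378). The 8 thalamic ones summed to 6498 to 23531 (median 18976) against 5508 to 36712 (7314). None of these markers was at 0 in any library. At an adjusted p of 0.05 for age, 3 of 13 hypothalamic markers were higher and 0 lower. Of 7 striatal markers 4 were lower and 0 higher, and of 9 cortical ones 5 were lower and 1 higher. Of 8 thalamic markers 0 passed, against 2.81% of all genes. With the striatal list added to the fit, the slope of Gabre was 0.22 (adjusted p = 0.367) and that of Gabrq 0.18 (0.367), with the cortical list 0.16 (0.281) and 0.15 (0.270), and with the hypothalamic list 0.16 (0.258) and 0.13 (0.267), against 0.23 and 0.19 without a list. Neither gene passed the threshold in these fits, and 0 of all 20505 genes did. The part of these lists in the slopes was not tested further. Both calls were also lost in females only, without promoter guide M_3 (Gabre 0.22, adjusted p = 0.0826; Gabrq 0.17, 0.0865) and without enhancer guide M_3 (0.23, 0.0507; 0.19, 0.0529), and 5 receptor genes passed without enhancer guide F_2, where 5.20% of all genes (1067) did. Neither call held with the replicate number in the fit, where 1 of all 20505 genes passed, against 577 without it. The authors' stabilized values, on which 0 genes were called for age, gave 0.01 for each. The sources used here do not say how those values were made or whether differences between libraries were removed from them, so they may not measure the same quantity.

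Gabrd, the delta subunit of extrasynaptic GABA-A receptors, divided the libraries of every group into low and high ones. It had 110.2, 236.0, 917.6, 768.0 and 1336.3 in wild type and 175.9, 183.9, 1362.6 and 186.4 in heterozygotes. With the promoter guide it had 60.9, 316.1, 1017.5, 1451.3, 131.9 and 1628.7, and with the enhancer guide 87.9, 1462.3, 44.0 and 1112.5. In all, 10 libraries lay between 44.0 and 316.1 and 9 between 768.0 and 1628.7. The 3 to 4 month libraries had a median of 1065.0 and the 6 to 9 month libraries one of 175.9, and the slope was -0.43 log2 per month (SE 0.161, limma unadjusted p = 0.0153, adjusted p = 0.162). Its group differences were -0.66 (SE 1.12) in heterozygotes against wild type and -0.11 with the enhancer guide against heterozygotes. The 95% intervals were -3.01 to 1.68 and -2.62 to 2.40, so that differences within those bounds were not excluded. Without heterozygous F_3 the differences were -0.43 (SE 1.26) and -0.33 (SE 1.32). Of the high libraries, wild type M_1 (1336.3) and enhancer guide F_2 (1462.3) were 9 and 7 months old and had the most thalamic marker RNA. The part of thalamic markers in Gabrd was not tested beyond counts from fits with their list added.

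**Figure D4:**
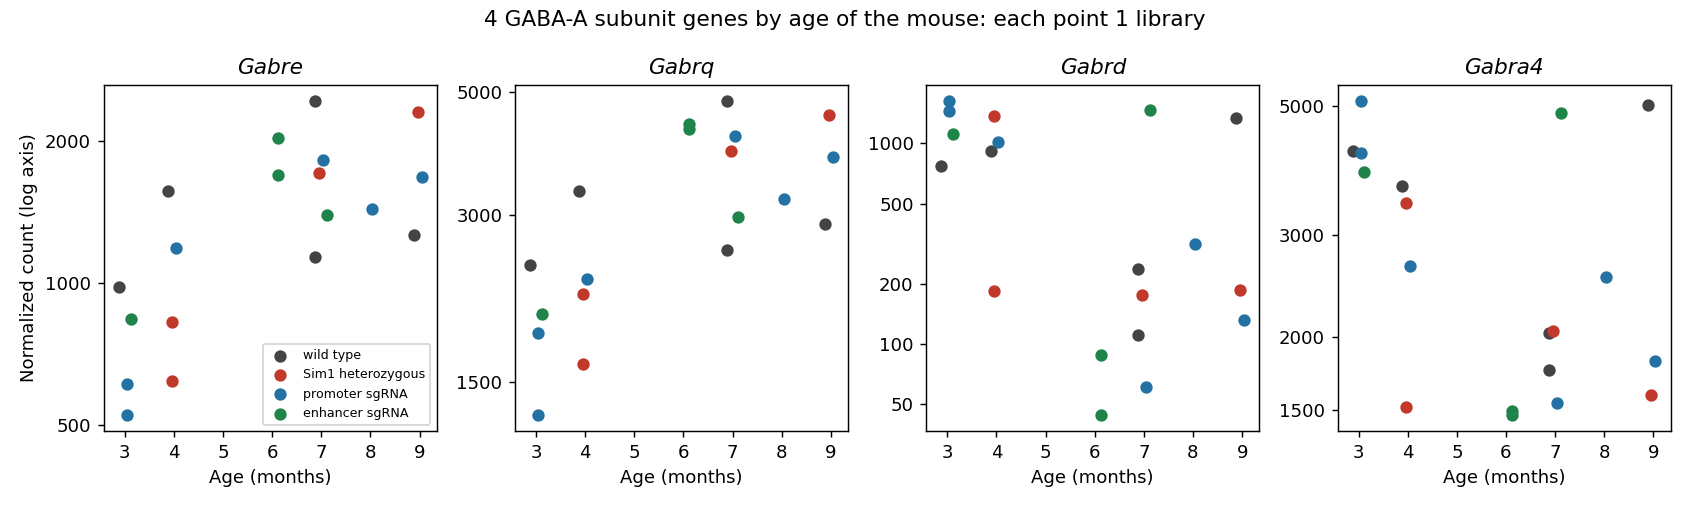
Normalized counts (log axis) of 4 GABA-A subunit genes against age in months; each point is 1 library, coloured by group and set apart by small horizontal shifts. Gabre and Gabrq lie higher at 6 to 9 than at 3 to 4 months with overlapping ranges, while Gabrd and Gabra4 lie mostly lower, with wild type M_1 (9 months) and enhancer guide F_2 (7 months) high.

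Gabre and Gabrq varied together across the libraries. The pairs named here were chosen after their values were seen. Across the 820 pairs over 19 libraries, Gabre and Gabrq had a Pearson r of 0.98 and a Spearman rho of 0.99 (permutation p = 1e-05 for both, the smallest the permutations can give, adjusted p = 0.00051 and 0.0015). Without the 2 libraries farthest from the median of Gabre r was 0.98, and after removing group means it was 0.98, as it was without heterozygous F_3. The libraries share their dissection and their cell composition, no batch is given in the labels, and the correlations were not taken within batches. Gabre lies at chromosome X 72255999 to 72274803 on the minus strand and Gabrq at 72825178 to 72842602 on the plus strand (GRCm38), with Gabra3 between them, at 72432681 to 72656848.

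The bases before the starts of these genes are shown because their levels were so close. They come from RefSeq on GRCm38.p6, and Gabre is shown only up to the gene start of the deposited table. Capitals mark GGGCGG or its reverse CCGCCC (the GC box bound by Sp factors) and ACGTG or its reverse CACGT, the core bound by bHLH-PAS factors, the family of SIM1, searched on both strands, and the marked matches do not overlap.
Gabre (chrX:72274804-72274971, minus strand): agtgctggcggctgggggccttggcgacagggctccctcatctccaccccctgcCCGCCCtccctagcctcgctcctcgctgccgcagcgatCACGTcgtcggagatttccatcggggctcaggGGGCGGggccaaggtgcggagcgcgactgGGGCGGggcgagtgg
Gabrq (chrX:72824928-72825177, plus strand): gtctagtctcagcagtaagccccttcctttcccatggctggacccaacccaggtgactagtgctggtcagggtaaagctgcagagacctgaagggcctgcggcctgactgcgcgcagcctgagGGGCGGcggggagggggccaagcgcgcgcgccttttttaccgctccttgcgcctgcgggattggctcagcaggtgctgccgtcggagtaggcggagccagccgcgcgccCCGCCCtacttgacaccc

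The Gabre stretch of 168 bases held 3 GC boxes and 1 ACGTG core at 73.2% G and C, and the Gabrq stretch of 250 bases held 2 GC boxes and no ACGTG core at 67.2%. In windows of 250 bases before the start, GC boxes were in 32.7% of all 32851 RefSeq promoters and in 18 of the 35 promoters of the 28 receptor genes that had one, and ACGTG was in 16.6% and in 6 of 35. TGACGTCA, the cAMP response element, was in 1.55% of all promoters and in 0 of the 35. These matches describe the letters only, and no Cas9 peak or other measurement here bears on them.

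Other pairs were close too. Gabbr1 and Gabbr2 had r = 0.91 and rho = 0.92 (permutation p = 1e-05 each, the smallest possible, adjusted p = 0.00051 and 0.0015), and r = 0.88 without the 2 libraries farthest from the median. Grik3 and Grik4, both kainate subunits, had r = 0.79 and rho = 0.88 (adjusted permutation p = 0.00082 and 0.0015). Gabrg1, a gamma subunit, and Grm4 varied in opposite directions, with r = -0.77 and rho = -0.89 (adjusted permutation p = 0.0017 and 0.0015), and r was -0.80 without the 2 farthest libraries. Among all pairs, 200 had a positive and 18 a negative r at an adjusted p of 0.05, and the median r was 0.29, or 0.13 without heterozygous F_3. Pairs of other genes were not correlated, so these counts have no reference. The number of pairs passing without F_3 is not given here. Gabrd and Gabra4, which assemble together in thalamic relay neurons, divided the libraries into groups, so r is given within them: 0.74 in the 10 low-Gabrd libraries (rho 0.71, permutation p = 0.014 and 0.027, adjusted over 6 relations 0.084 and 0.16, r = 0.70 without the 2 farthest) and 0.48 in the 9 high ones (rho 0.50, permutation p = 0.2 and 0.18, adjusted 0.26 and 0.21).

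**Figure D5:**
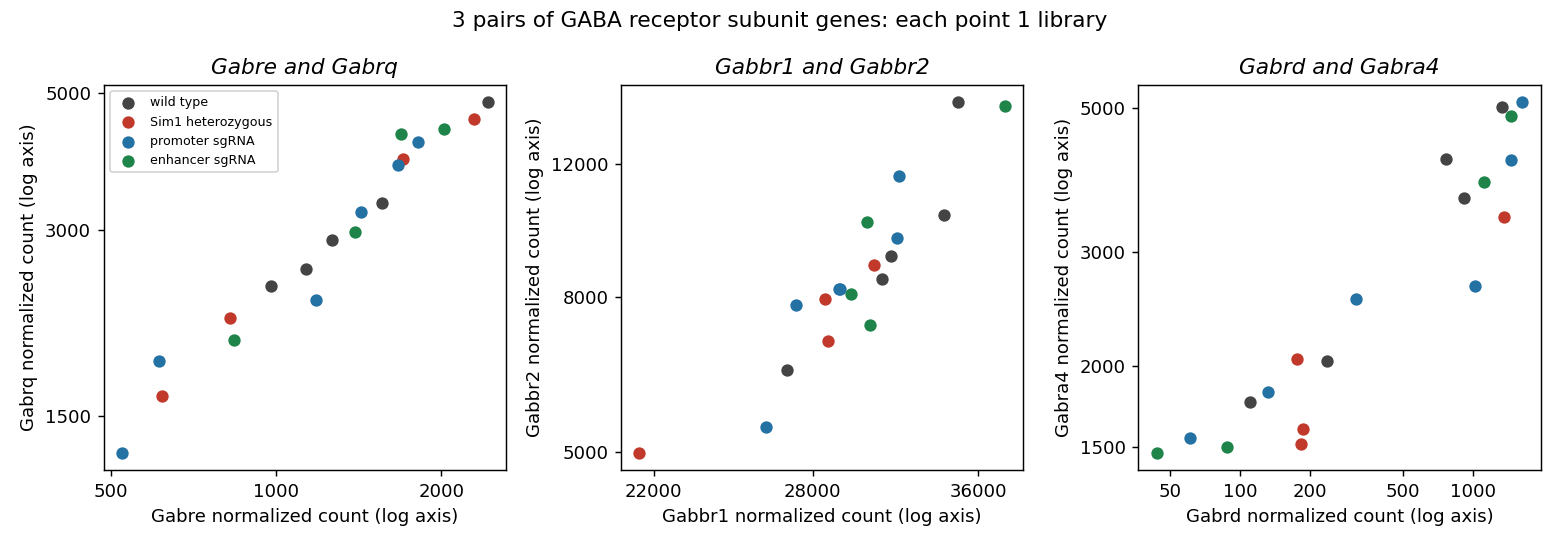
Normalized counts (log axes) of 3 pairs of GABA receptor subunit genes; each point is 1 library, coloured by group. Gabre and Gabrq lie near 1 line (rho 0.99), Gabbr1 and Gabbr2 along a looser one (rho 0.92), and Gabrd divides the libraries into 10 low and 9 high ones, with Gabra4 higher in the latter.

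Cas9 binding was examined in 6 deposited peak lists of 92 to 205 peaks, from S. pyogenes and S. aureus Cas9 antibodies in hypothalamus and S. pyogenes Cas9 in Neuro2A, a mouse neuroblastoma line. No list of mice or cells without a guide was analysed here. Each list covers the samples of 1 guide and antibody together, and its scores are the authors'. No peak lay within a receptor gene, and 2 receptor genes had 1 within 100 kb. The share of all genes with a peak at those distances is not given here. Of the 2 receptor genes, Grin3b had a peak 61.4 kb away, within Med16, in all 6 lists, with fold enrichments of 8 to 13.1. Grin3b, at 2.1 to 21.1 normalized counts, differed by 0.13 (SE 0.576) with the enhancer guide and by -0.40 (SE 0.519) with the promoter guide against heterozygotes, or by 0.41 (SE 0.604) and -0.11 (SE 0.556) without F_3.

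Of the receptor genes, 11 overlap another gene in the deposited table, and the sources used here do not say whether counting used strand, so their counts are uncertain. Grin2d overlaps Kdelr1 and Grin3b overlaps Tmem259, both more highly counted, and Gabra4 and Gabrb1 overlap at their starts.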

How the data were processed

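RNA of 19 hypothalamus libraries was taken from the deposited gene table of 22447 genes. The tools named in the submitters' processing notes are DESeq2 1.16.1, MACS2 2.1.1.20160309, STAR 2.5.2b and CASAVA 1.8, without their roles. The notes name mm9 as the build, but the gene positions match GRCm38 for all 41 receptor genes. Per the file headers, the authors' table holds a normalized count signal, stabilized log2 values, and the authors' comparisons with log2 fold changes, fold ratios, p-values and false discovery rates. The sources used here do not say how the authors stabilized the log2 values. The deposited table also gives each gene's GC percent, made by the authors. The deposited peak lists give pileup signal, fold enrichment ratios and −log10 q values.

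Dividing the normalized counts by each library's step gave whole reads for 99.65 to 100% of values (within 0.0505 normalized counts), so the deposited values equal reads divided by a factor per library. Genes with a mean of at least 1 (20505) were tested with limma 3.58.1 in R 4.3.3 on log2(normalized count + 1), with group and sex, over all 19 libraries, and p-values were adjusted by Benjamini-Hochberg over all genes. A fold change on this scale understates the change of low genes. Permutation tests were two-sided, with 100000 permutations and Python 3.11.15. edgeR 4.0.16, run on the recovered reads, called 0 genes in all 6 comparisons between groups. The scripts were tested on simulated data.

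Members, lists, the age term, the age classes and thresholds were chosen with earlier results of these data known. Values are given for a list of receptor genes, for up to 4 per comparison and direction with unadjusted p under 0.05, for up to 3 partner genes, and for others chosen after their values were seen. The labels number the libraries but do not say that each came from a separate animal, and p-values then measure the spread between these libraries. Values of some receptor and partner genes and of 1 peak are not reported here, while counts cover all 41 receptor genes.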

Additional observations from a re-analysis of the deposited data

Results flagged for a closer look

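Among 152 groups of libraries examined (4 groups of 38 genes), 7 held a library far from the rest of its group, with a gap to the nearest library above Dixon's limit. Chance flags about 1 in 20 groups. Gria2 was at 5013 in Sim1 heterozygous F_3 (nearest 9251.5). Gabra6 was at 358.9 in Sim1 heterozygous M_1 (nearest 9.2), and Gabrd at 1362.6 in Sim1 heterozygous F_4 (nearest 186.4). Gabbr1 was at 37485.3 in enhancer guide F_2 (nearest 30538.1), and Gabrb2 at 2071.3 in enhancer guide F_1 (nearest 3013). Gria3 was at 2894.8 in wild type M_1 (nearest 2585.9), and Grin2a at 224.7 in promoter guide M_3 (nearest 93.9).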

How the results depend on the processing

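No receptor gene passed an adjusted p of 0.05 between groups under any alternative run, in limma or edgeR. The unadjusted counts moved. For the alternatives of this section, the share of all genes passing the unadjusted threshold is not given, so the counts are not set against it. One alternative left out 4 libraries together: Sim1 heterozygous F_4, wild type F_2, promoter guide F_5 and promoter guide M_3. It kept Sim1 heterozygous F_3. For heterozygotes against wild type (2), they were 9 on the stabilized values, 0 in females only and 9 without those 4 libraries. They were 1 with thalamic markers added and 0 to 8 leaving out 1 library, with 22 to 38 lower. For the promoter guide against heterozygotes (0), they were 1 by edgeR, on the stabilized values, without sex, without the B6 libraries and without 4 libraries, and 0 to 5 leaving out 1, with 22 to 37 higher. For the enhancer guide against heterozygotes (5), they were 1 with neuron markers and 9 without 4 libraries, and 1 to 9 leaving out 1. For the promoter guide against wild type (0), they were 5, 4, 1 and 2 on stabilized values, with neuron markers, without the B6 libraries and without 4 libraries, and 0 to 1 leaving out 1. For the enhancer guide against wild type, the count was 1 with neuron markers, and 14 and 18 were higher on stabilized values and with neuron markers (28). Between the guides, the counts were 1, 2, 1 and 2 on stabilized values, with only the compared groups, without the B6 libraries and without 4 libraries, and 0 to 1 leaving out 1.

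For age (2 adjusted, 16 unadjusted), the adjusted count was 0 on stabilized values, in females only, without 4 libraries and with striatal, cortical or hypothalamic markers, 1 with thalamic and 5 with neuron markers, and 0 to 5 leaving out 1. Over all genes, 0.575% passed the adjusted threshold with thalamic markers, 3.47% with neuron markers and 0.0439% without 4 libraries. The unadjusted count was 0 on stabilized values and 8 in females only. The slope of Gabre was 0.01 on stabilized values, 0.22 in females only, 0.20 without 4 libraries, 0.22, 0.16 and 0.16 with striatal, cortical and hypothalamic markers, and 0.21 to 0.26 leaving out 1. The slope of Gabrq was 0.01, 0.18, 0.18, 0.18, 0.15 and 0.13 in the same order, 0.17 with thalamic markers, and 0.17 to 0.22 leaving out 1. Receptor genes with a peak numbered 0 within the gene and 8 within 1 Mb (2 at 100 kb), and the share of all genes at these distances is not given here. The sources used here do not say how the stabilized values were made or whether differences between libraries were removed from them. Slopes on them may therefore not measure the same quantity. The causes were not tested.

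The replicate numbers recur across groups without a stated meaning. Of 20 same-numbered pairs, 15 correlated above 0.1 (-0.27 to 0.58), and 12 of 18 libraries correlated best with their own number. The median r was 0.34 for same-numbered pairs and -0.06 for other pairs between groups. With a replicate block, 3 receptor genes passed the unadjusted threshold for the enhancer guide, 0 and 4 passed the adjusted and unadjusted ones for age, where 1 of all genes passed the adjusted one (577 without the block), and the slopes were 0.18 and 0.08.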
